A study of Mus musculus with 6 samples.

Results

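Collagens are the main structural proteins of the extracellular matrix, and the genes described here are all genes of the deposited expression table whose symbol reads Col, a number, a and a number, as in Col1a1. There were 44 such genes among the 21362 genes of that table, and they were read as 11 fibrillar collagens, 8 basement membrane collagens and 25 other collagens. Bulk RNA-seq was measured in 6 livers of Mettl14f/f male mice on a high fat diet (HFD), 3 transduced with AAV8-TBG-GFP and 3 with AAV8-TBG-Cre. The floxed Mettl14 alleles, the sex and the diet were shared by both groups, so the groups differed by the protein that the vector encoded, and the labels give the genotypes as WT and METTL14 KO. The diet started at 8 weeks of age, the vector was given after 10 weeks of it, and the livers were taken 8 weeks after the vector. The vector, an adeno-associated virus of serotype AAV8, carries the promoter of thyroxine-binding globulin (TBG), which is active in hepatocytes, so that Cre recombines floxed alleles in that cell type and other liver cells keep them. The groups are called GFP-labelled and Cre-labelled, and values are given for replicates 1, 2 and 3 in that order. Mettl14 encodes a subunit of the methyltransferase that writes N6-methyladenosine on RNA, and the study asked which liver genes depend on it.

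A collagen molecule is built from chains that wind around each other along repeats of glycine and 2 further residues, and the kind of chain decides the kind of assembly. Fibrillar collagens (types I, III and V in liver) form the cross-striated fibrils that make up scar tissue, type IV forms the sheet of basement membranes, and beaded filament, short chain and fibril-associated collagens form other networks or decorate fibrils. In liver, hepatic stellate cells and portal fibroblasts are known as the main makers of fibrillar collagen, endothelial and biliary cells contribute basement membrane chains, and hepatocytes are known to express Col18a1, whose C-terminal fragment is endostatin.

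The files gave an expected count for each transcript, an estimate of the number of sequenced fragments that can be a fraction where transcripts share sequence. Summed per gene and rounded, they added up to between 20356440 and 21010508 per liver, and collagen genes took 0.157%, 0.146% and 0.156% of them in the GFP-labelled livers and 0.193%, 0.265% and 0.180% in the Cre-labelled livers. The floxed gene itself passed neither threshold used here. Mettl14 stood at 6.30, 6.43 and 5.81 CPM in the GFP-labelled livers and 4.96, 5.38 and 4.86 CPM in the Cre-labelled livers (CPM, counts scaled to the library total after TMM, a correction for library composition), a log2 fold change of -0.29 ± 0.15 (SE; edgeR adjusted p = 0.337). On that scale all 3 Cre-labelled livers lay below the GFP-labelled ones, but by gene FPKM, a level corrected for both transcript length and library size, AAV8-TBG-Cre replicate 2 was the highest of the 6, at 2.40. Bulk liver also holds other cells that keep Mettl14, and the share of recombined alleles was not measured. In male livers of the same model, taken earlier after the vector, the paper reported substantially less METTL14 protein and lower total N6-methyladenosine. AAV8-TBG-Cre replicate 2 stood apart for collagens. It had the highest value of the 6 livers for 17 of the 26 collagen genes tested (65.4%), against 23.3% of all genes tested, and results are given with and without it where it decides them.

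Of the 44 collagen genes, 26 passed the count filter (10 counts at the median depth, 0.484 CPM, in at least 3 livers) and 18 did not. At the study's threshold, an unadjusted p under 0.05 with a fold change of at least 1.2, here applied to edgeR's quasi-likelihood test, 16 of the 26 were higher in the Cre-labelled livers (61.5%), against 12.0% of the 13431 genes tested, and 1 was lower, Col27a1, against 8.41%. At a Benjamini-Hochberg adjusted p under 0.05 over all genes tested, Col4a5 rose and Col27a1 fell, against 0.484% and 0.447% of all genes in the 2 directions. A further 8 collagen genes that were higher had an adjusted p between 0.05 and 0.1. The median log2 fold change was 0.99 over the 26 collagen genes and -0.0065 over all genes tested. The 3 Cre-labelled livers lay above the 3 GFP-labelled livers for 14 of the 26, against 14.0% of all genes tested, and below them for 1, against 13.0%. Col4a4, Col4a6 and Col8a1 passed the filter through the Cre-labelled livers, with 0, 0 and 1 GFP-labelled livers above it, so they could be tested only because they were higher there. Without these 3 genes 13 of 23 were higher, with a median of 0.98. With 3 livers per group an exact permutation test cannot give a p under 0.1, and the p-values measure only the spread between these livers.

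**Figure D1:**
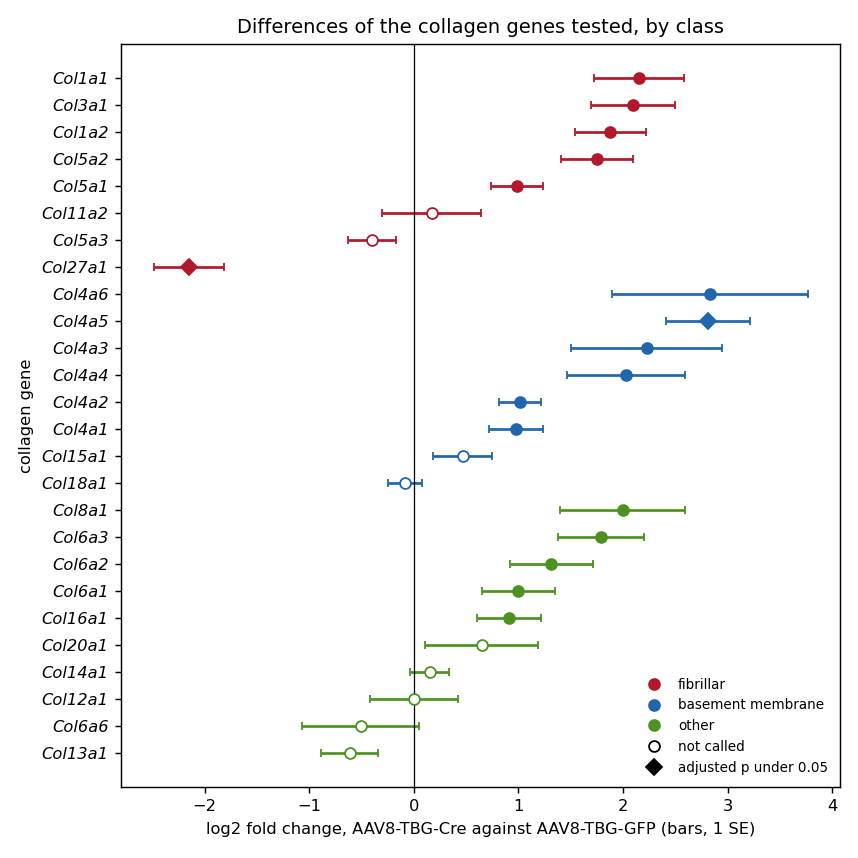
Log2 fold change of the 26 collagen genes tested, Cre-labelled against GFP-labelled livers (x axis, bars 1 SE, edgeR), with the genes on the y axis in their 3 classes. Filled symbols passed the study's threshold, and diamonds, Col4a5 at 2.81 and Col27a1 at -2.15, an adjusted p under 0.05.

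The genes of several chains that are built into 1 molecule, or belong to 1 family, are neighbours in the genome. Within 200 kb of each other lie 9 pairs of the 44 genes (GRCm38.p6 coordinates from RefSeq). Both members were tested in 5 pairs. In 3 of these, Col4a1 and Col4a2 on chromosome 8, Col3a1 and Col5a2 on chromosome 1, and Col6a1 and Col6a2 on chromosome 10, both members were higher at the study's threshold. Col6a1 was not called without AAV8-TBG-Cre replicate 2. Of all collagen genes tested 61.5% were higher, and whether neighbours moved together more than other collagens was not tested. The other 2 pairs were Col4a3 and Col4a4 on chromosome 1 and Col4a5 and Col4a6 on the X chromosome. In these Col4a3 and Col4a5 were higher as well, while Col4a4 and Col4a6 could be tested only because they were higher, so the 2 pairs are not counted. The 3 type IV pairs are arranged head to head, and the gene models overlap by 85 bases for Col4a1 and Col4a2 and by 114 bases for Col4a3 and Col4a4, while 1274 bases lie between Col4a6 and Col4a5. Col3a1 ends 24624 bases from Col5a2, and 85161 bases lie between Col6a2 and Col6a1. Whether the counting used the strand is not given in the sources used here, so fragments from the 2 overlapping ends cannot be assigned to 1 gene with certainty.

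The bases before the annotated start are printed for Col1a2 and Col3a1, 2 fibrillar chains that were higher and whose window in the RefSeq promoter table lies wholly before the annotated gene, for Col4a5, the collagen that rose, and for Col18a1, the most abundant collagen, which did not pass either threshold. They are written 5′ to 3′ on the strand of the gene in assembly GRCm38.p6. Col1a2 is at chr6:4505368-4505617 (+), Col3a1 at chr1:45311288-45311537 (+), Col4a5 at chrX:141475169-141475369 (+, the part of the window outside the annotated gene) and Col18a1 at chr10:77166531-77166780 (-, before the more upstream of its 2 annotated windows). Capitals mark matches on either strand to CCAAT (the core of the CCAAT box), GGGCGG (a GC box), TATAAA (the TATA box) and TGANTCA (the AP-1 site).
Col1a2: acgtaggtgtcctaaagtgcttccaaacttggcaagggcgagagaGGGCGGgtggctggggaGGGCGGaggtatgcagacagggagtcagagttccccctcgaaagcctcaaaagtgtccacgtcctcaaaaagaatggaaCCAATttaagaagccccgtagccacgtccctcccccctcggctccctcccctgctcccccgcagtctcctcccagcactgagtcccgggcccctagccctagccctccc
Col3a1: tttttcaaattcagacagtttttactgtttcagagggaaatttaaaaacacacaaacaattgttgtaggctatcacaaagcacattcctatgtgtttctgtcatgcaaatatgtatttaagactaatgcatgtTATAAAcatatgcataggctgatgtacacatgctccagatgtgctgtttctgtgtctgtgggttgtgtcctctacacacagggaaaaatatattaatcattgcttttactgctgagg
Col4a5: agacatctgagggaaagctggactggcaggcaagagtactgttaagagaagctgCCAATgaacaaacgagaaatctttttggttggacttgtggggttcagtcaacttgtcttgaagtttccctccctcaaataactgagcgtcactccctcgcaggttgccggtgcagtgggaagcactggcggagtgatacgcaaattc
Col18a1: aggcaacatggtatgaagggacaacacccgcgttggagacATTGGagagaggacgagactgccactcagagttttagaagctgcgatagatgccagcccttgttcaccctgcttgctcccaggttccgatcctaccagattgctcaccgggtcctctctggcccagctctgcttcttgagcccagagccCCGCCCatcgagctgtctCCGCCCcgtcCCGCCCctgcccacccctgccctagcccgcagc
The Col1a2 stretch held 1 CCAAT and 2 GGGCGG matches, and the Col3a1 stretch held 1 TATAAA match and none of the other motifs. Col4a5 had 1 CCAAT match in the stretch shown, and Col18a1 had 1 CCAAT match and 3 GGGCGG matches. The other Col18a1 window held no match to any of these motifs. Which of its windows serves the abundant liver transcript was not determined, so the printed stretch need not be the one in use. No match overlapped a match of another motif in these stretches. Over the 250 bases before the start, 38 windows of 35 collagen genes were in the table. GGGCGG was found in 22 of the 38 windows (57.9%), against 32.7% of 32851 windows of the same length over all genes. CCAAT was found in 13 (34.2%, against 33.9%), TATAAA in 5 (13.2%, against 12.4%) and TGANTCA in 1 (2.63%, against 6.75%). These shares describe the windows and were not tested.

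Fibrillar collagens split into a group of 5 that were higher in the Cre-labelled livers, a single gene that fell, and 2 that passed neither threshold. The 5 were Col1a1 and Col1a2, the chains of type I collagen, Col3a1, the chain of type III, and Col5a1 and Col5a2, the type V chains that start fibrils and set their width. Their log2 fold changes lay between 0.98 and 2.15, and the median over the 8 fibrillar genes tested was 1.37.

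Col1a1, the chain of which type I collagen holds more copies, is at chr11:94936224-94953042. It stood at 40.6, 15.7 and 26.4 CPM in the GFP-labelled livers and 83.6, 195 and 89.7 CPM in the Cre-labelled livers, a log2 fold change of 2.15 ± 0.43 (SE, n = 3 per group; adjusted p = 0.0612). Every Cre-labelled liver lay above every GFP-labelled liver, and replicate 2 lay far above the other Cre-labelled livers. Without that liver the log2 fold change was 1.65 (unadjusted p = 0.00261, adjusted p = 0.116, edgeR). Col1a2 (chr6:4505618-4541543) stood at 31.8, 18.6 and 20.3 CPM in the GFP-labelled livers and 63.9, 133 and 63.4 CPM in the Cre-labelled livers, with a log2 fold change of 1.88 ± 0.34 (SE, n = 3 per group; adjusted p = 0.0549). The groups did not overlap, with Cre-labelled replicate 2 again high and replicates 1 and 3 nearly equal.

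Col3a1, which forms the thin reticular fibrils of liver, had the highest mean FPKM of the fibrillar collagens in both groups, although Col27a1 was above it in AAV8-TBG-GFP replicate 2 and Col5a3 in AAV8-TBG-GFP replicate 3. It lies at chr1:45311538-45349706 and stood at 59.8, 30.7 and 39.1 CPM in the GFP-labelled livers and 135, 299.7 and 118 CPM in the Cre-labelled livers, a log2 fold change of 2.09 ± 0.40 (SE, n = 3 per group; adjusted p = 0.0585). The groups did not overlap, and in FPKM its mean was 7.25 ± 2.66 (SD, n = 3) in the GFP-labelled livers and 35.9 ± 23.2 in the Cre-labelled livers. Its neighbour Col5a2 (chr1:45374331-45503282) was read at 5.23, 3.42 and 3.35 CPM in the GFP-labelled livers and 9.88, 20.7 and 9.87 CPM in the Cre-labelled livers, a log2 fold change of 1.75 ± 0.35 (SE, n = 3 per group; adjusted p = 0.0601). Again the 3 Cre-labelled livers were the 3 highest, with replicate 2 at the top.

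Col5a1, the partner of Col5a2 in type V collagen (chr2:27886381-28039510), was read at 11.3, 8.98 and 12.6 CPM in the GFP-labelled livers and 18.0, 30.1 and 16.7 CPM in the Cre-labelled livers, and the log2 fold change was 0.98 ± 0.25 (SE; adjusted p = 0.0879). The groups did not overlap. Col5a3, a type V chain of restricted tissue distribution, stood at 36.5, 30.4 and 58.0 CPM in the GFP-labelled livers and 31.2, 34.5 and 29.0 CPM in the Cre-labelled livers. Its groups overlapped, the highest value being that of AAV8-TBG-GFP replicate 3, and its log2 fold change of -0.40 ± 0.23 (adjusted p = 0.365) passed neither threshold. Col11a2, a type XI chain known from cartilage, was near 1 CPM or below it and differed by 0.17 ± 0.47 on the log2 scale (adjusted p = 0.869).

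Col27a1 moved the other way. It encodes the chain of type XXVII collagen, a fibrillar collagen with a shorter helix than types I to III, known from cartilage. The gene is at chr4:63214009-63334991 and stood at 71.3, 57.5 and 34.7 CPM in the GFP-labelled livers and 12.4, 16.6 and 7.75 CPM in the Cre-labelled livers. The means were 54.5 ± 18.5 CPM (SD, n = 3) and 12.2 ± 4.44 CPM. Every Cre-labelled liver was below every GFP-labelled liver, and within the Cre-labelled group replicate 2 was the highest here too. It fell by 2.15 ± 0.33 (SE) on the log2 scale, with an adjusted p of 0.0396 in edgeR. With AAV8-TBG-Cre replicate 2 left out the log2 fold change was -2.44, with an unadjusted p of 0.000407 and an adjusted p of 0.0766 in edgeR, a fit in which no gene of 13527 passed the adjusted threshold and 1108 and 791 were higher and lower at the study's threshold. In the GFP-labelled livers Col27a1 was the fourth most abundant collagen by FPKM, at 6.67 ± 2.42 FPKM (SD), and in the Cre-labelled livers it had rank 15, at 1.72 ± 0.774 FPKM.

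The 3 remaining fibrillar genes were not tested. Col2a1, the cartilage collagen, had no count in any liver. Col24a1 had between 3 and 10 counts per liver and Col11a1 between 0 and 11, the 2 highest of the latter in AAV8-TBG-Cre replicates 2 and 3.

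**Figure D2:**
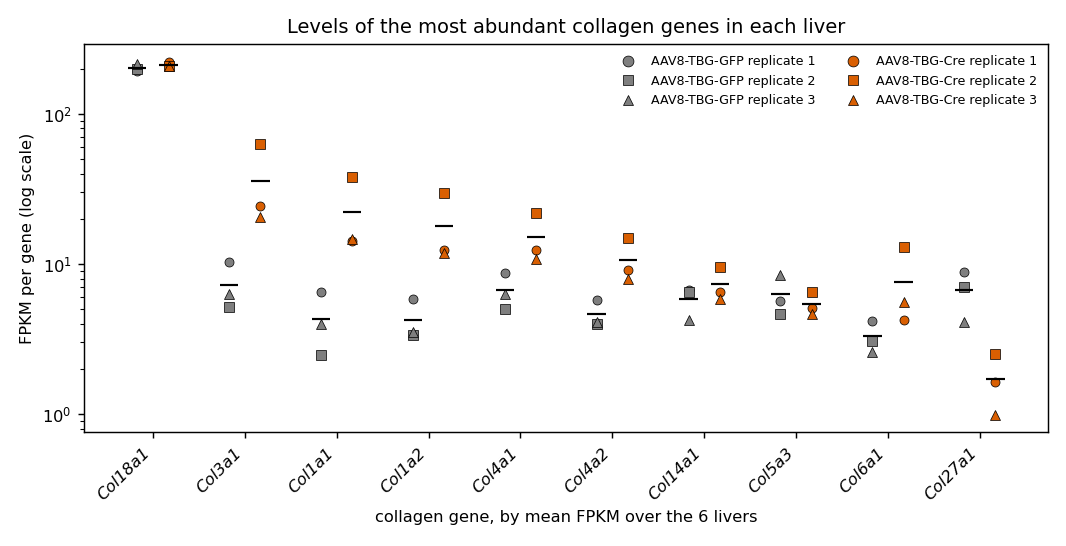
FPKM (y axis, log scale) of the 10 collagen genes with the highest mean, in each liver, with bars at the group means. Col18a1 lies near 200 FPKM in both groups, while the Cre-labelled livers lie above the GFP-labelled ones for Col3a1, Col1a1 and Col1a2 and below them for Col27a1.

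Basement membrane collagens held the most abundant collagen of this tissue, which passed neither threshold, and 6 type IV chains, of which Col4a1, Col4a2, Col4a3 and Col4a5 were higher in the Cre-labelled livers at the study's threshold. Col4a4 and Col4a6 were higher too, but were testable only through those livers. The log2 fold changes of the 6 chains lay between 0.98 and 2.83. The median over the class was 1.52, and 1.00 over the 6 genes left without Col4a4 and Col4a6.

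Type IV collagen exists as trimers of Col4a1 and Col4a2 chains, found in most basement membranes, of Col4a3, Col4a4 and Col4a5 chains, known from kidney, lung and inner ear, and of Col4a5 and Col4a6 chains. Col4a1 (chr8:11198423-11312889) was read at 61.1, 35.5 and 46.4 CPM in the GFP-labelled livers and 81.7, 126 and 74.0 CPM in the Cre-labelled livers, a log2 fold change of 0.98 ± 0.26 (SE, n = 3 per group; adjusted p = 0.0948). Col4a2 (chr8:11312805-11449287) was read at 38.8, 27.7 and 29.7 CPM in the GFP-labelled livers and 58.6, 82.9 and 52.7 CPM in the Cre-labelled livers, a log2 fold change of 1.01 ± 0.20 (SE, n = 3 per group; adjusted p = 0.0611). For both chains the groups did not overlap and AAV8-TBG-Cre replicate 2 was highest. Without it the log2 fold changes were 0.71 and 0.79 (unadjusted p = 0.0161 and 0.00237, edgeR), and both chains remained higher at the study's threshold.

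The other 4 type IV chains were rare messages. Col4a5, whose loss is known to cause Alport syndrome in humans, lies at chrX:141475370-141689236. It was read at 0.966, 1.02 and 0.838 CPM in the GFP-labelled livers and 4.82, 10.6 and 4.43 CPM in the Cre-labelled livers. The GFP-labelled livers lay close together near 1 CPM and the Cre-labelled livers all lay above 4 CPM. It rose by 2.81 ± 0.40 (SE) on the log2 scale, 7.02-fold, with an adjusted p of 0.0363 in edgeR. With AAV8-TBG-Cre replicate 2 left out the log2 fold change was 2.28, with an adjusted p of 0.0559 in edgeR. The 95% interval over all livers, 2.03 to 3.60 on the log2 scale, used a normal approximation and is too narrow for 3 livers per group. Its neighbour Col4a6 (chrX:141165403-141474095) stood at 0.457, 0 and 0.105 CPM in the GFP-labelled livers and 0.525, 2.55 and 1.01 CPM in the Cre-labelled livers, from 0 to 62 counts per liver, with a log2 fold change of 2.83 ± 0.94 (SE, n = 3 per group; adjusted p = 0.152). The lowest Cre-labelled liver was barely above the highest GFP-labelled liver, and Col4a6 did not pass the study's threshold without AAV8-TBG-Cre replicate 2 (1.99, unadjusted p = 0.0707, edgeR).

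Col4a3 and Col4a4 had another order among the Cre-labelled livers. Col4a3 (chr1:82586921-82722059) stood at 0.762, 1.53 and 0.681 CPM in the GFP-labelled livers and 9.64, 3.04 and 1.35 CPM in the Cre-labelled livers, a log2 fold change of 2.23 ± 0.72 (SE, n = 3 per group; adjusted p = 0.147). Here AAV8-TBG-Cre replicate 1 was the highest, and AAV8-TBG-Cre replicate 3 lay below AAV8-TBG-GFP replicate 2, so the groups overlapped. Col4a4 (chr1:82448419-82587034) stood at 0.407, 0.102 and 0.314 CPM in the GFP-labelled livers and 1.67, 1.11 and 0.626 CPM in the Cre-labelled livers, a log2 fold change of 2.03 ± 0.56 (SE, n = 3 per group; adjusted p = 0.108), without overlap and in the same order of Cre-labelled livers. Of the 16 genes that were higher at the study's threshold, these were the 2 that were not highest in AAV8-TBG-Cre replicate 2.

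Col18a1, a collagen with heparan sulfate chains that lines vessels and sinusoids, lies at chr10:77052178-77166530 and stood far above every other collagen. It was read at 1136, 1198 and 1346 CPM in the GFP-labelled livers and 1250.2, 1019 and 1198 CPM in the Cre-labelled livers, and the groups overlapped. Its log2 fold change was -0.09 ± 0.16 (SE; adjusted p = 0.803), with a 95% interval by the same normal approximation from -0.40 to 0.23. It took 71.6%, 79.5% and 80.1% of the summed FPKM of all collagen genes in the GFP-labelled livers and 67.3%, 46.3% and 67.0% in the Cre-labelled livers. The sum over the remaining collagens was 76.3, 51.4 and 53.5 FPKM in the GFP-labelled livers and 108, 243 and 102 FPKM in the Cre-labelled livers. Each Cre-labelled liver was above each GFP-labelled liver in that sum, and AAV8-TBG-Cre replicate 2 was far above the next. Col15a1, the relative of Col18a1 at chr4:47207655-47313167, differed by 0.47 ± 0.28 on the log2 scale (adjusted p = 0.397) with overlapping groups.

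**Figure D3:**
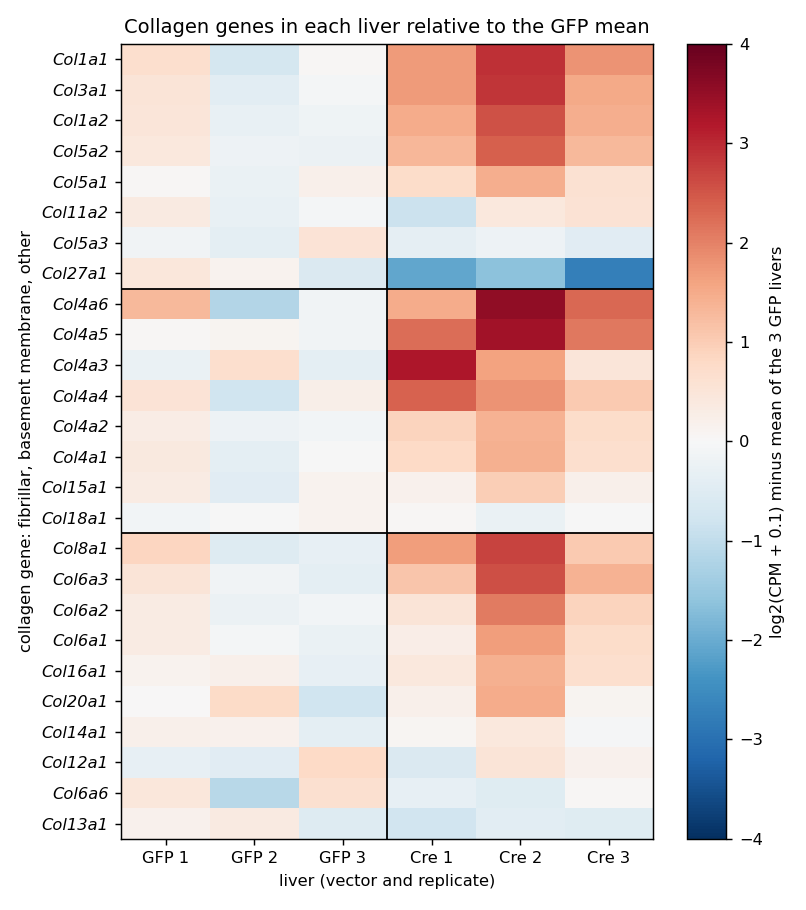
Log2(CPM + 0.1) of the 26 collagen genes tested (rows, in the 3 classes divided by lines) in each liver (columns), minus the mean of the 3 GFP-labelled livers. AAV8-TBG-Cre replicate 2 is the highest of the 6 livers for 17 of the 26 genes, Col4a3 and Col4a4 are highest in AAV8-TBG-Cre replicate 1, and Col27a1 is lower in all 3 Cre-labelled livers.

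Among the other collagens, 10 of the 25 genes were tested. At the study's threshold 5 were higher and 0 lower in edgeR, with a median log2 fold change of 0.78, or 4 of 9 with a median of 0.65 without Col8a1. At an adjusted p under 0.05 the count was 0. The 5 were Col6a1, Col6a2 and Col6a3, the chains of the beaded filaments that surround cells, Col8a1, a short chain collagen of vessel walls, and Col16a1, a fibril-associated collagen.

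Col6a3 (chr1:90766860-90844001) was read at 21.3, 13.6 and 11.5 CPM in the GFP-labelled livers and 32.0, 89.1 and 39.7 CPM in the Cre-labelled livers, a log2 fold change of 1.79 ± 0.41 (SE, n = 3 per group; adjusted p = 0.0766). Col6a2 (chr10:76595756-76623630) was read at 9.40, 6.38 and 6.86 CPM in the GFP-labelled livers and 10.7, 31.5 and 14.0 CPM in the Cre-labelled livers, a log2 fold change of 1.31 ± 0.39 (SE, n = 3 per group; adjusted p = 0.128). Neither gene overlapped between groups, although for Col6a2 the lowest Cre-labelled liver was close to the highest GFP-labelled one. Col6a1 (chr10:76708792-76726044) was read at 17.4, 13.1 and 11.5 CPM in the GFP-labelled livers and 16.7, 44.4 and 22.8 CPM in the Cre-labelled livers, with overlapping groups and a log2 fold change of 1.00 ± 0.35 (adjusted p = 0.167). For all 3 chains AAV8-TBG-Cre replicate 2 was well above the next liver. Without it the log2 fold changes of Col6a3, Col6a2 and Col6a1 were 1.21, 0.71 and 0.49, and Col6a1 was no longer called (unadjusted p = 0.0621, edgeR).

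Col8a1 (chr16:57624256-57754737) stood at 0.966, 0.306 and 0.366 CPM in the GFP-labelled livers and 1.77, 3.70 and 1.11 CPM in the Cre-labelled livers, a log2 fold change of 2.00 ± 0.60 (SE, n = 3 per group; adjusted p = 0.126), and AAV8-TBG-Cre replicate 3 was only slightly above AAV8-TBG-GFP replicate 1. The difference was 1.38 when AAV8-TBG-Cre replicate 2 was left out (unadjusted p = 0.0402, edgeR) and 2.68 when AAV8-TBG-GFP replicate 1 was. Col16a1 (chr4:130047817-130099277) stood at 3.61, 3.72 and 2.57 CPM in the GFP-labelled livers and 4.44, 8.91 and 5.20 CPM in the Cre-labelled livers, a log2 fold change of 0.91 ± 0.31 (SE, n = 3 per group; adjusted p = 0.156). Its groups did not overlap, and without AAV8-TBG-Cre replicate 2 it was no longer called (0.54, unadjusted p = 0.0603, edgeR).

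The 5 tested genes of this class that passed neither threshold all overlapped between groups. Col14a1 is a fibril-associated collagen at chr15:55307644-55520803 and the sixth most abundant collagen of the GFP-labelled livers. It stood at 45.3, 45.1 and 30.4 CPM in the GFP-labelled livers and 42.0, 53.6 and 38.7 CPM in the Cre-labelled livers (0.15 ± 0.19, adjusted p = 0.694). The log2 fold changes of the fibril-associated Col12a1 and Col20a1 were 0.003 ± 0.42 and 0.65 ± 0.54. The transmembrane Col13a1 differed by -0.61 ± 0.27 (adjusted p = 0.252), and Col6a6, a long chain of type VI, by -0.51 ± 0.56 (adjusted p = 0.651).

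The 15 genes of this class that were not tested lay at the limit of this depth. Col6a4, Col9a1, Col19a1 and Col26a1 had no count in any liver. The short chain Col8a2 had 2, 2 and 0 counts in the GFP-labelled livers and 5, 20 and 9 in the Cre-labelled livers, and Col22a1 had 0, 0 and 0 against 3, 3 and 2. Counts per liver lay between 5 and 22 for Col23a1, 2 and 19 for Col9a3, 3 and 17 for Col6a5, 3 and 10 for Col7a1 and 2 and 9 for Col25a1. They were at most 4 for Col28a1, 3 for Col9a2, 2 for Col10a1 and 2 for Col17a1.

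The order of the collagens by mean FPKM changed between the groups below Col18a1. In the GFP-labelled livers Col18a1 (202 ± 11.7 FPKM, SD, n = 3) was followed by Col3a1 (7.25 ± 2.66), Col4a1 (6.69 ± 1.91), Col27a1 (6.67 ± 2.42) and Col5a3 (6.28 ± 2.00). The 4 genes after Col18a1 did not differ from each other beyond their spread. In the Cre-labelled livers Col18a1 (214 ± 8.47 FPKM) was followed by Col3a1 (35.9 ± 23.2), Col1a1 (22.3 ± 13.6), Col1a2 (17.9 ± 10.1) and Col4a1 (15.1 ± 6.02), again with spreads that overlap between neighbours below the first. Summed per class, the fibrillar collagens came to 30.7 ± 7.80 FPKM in the GFP-labelled livers and 88.4 ± 51.1 FPKM in the Cre-labelled livers. The basement membrane collagens other than Col18a1 came to 14.1 ± 3.52 and 31.7 ± 12.3 FPKM, and the other collagens to 15.6 ± 3.51 and 31.0 ± 16.7 FPKM. AAV8-TBG-Cre replicate 2 held the highest of each of these FPKM sums. FPKM has no TMM correction, and the TMM factor was largest in that liver, at 1.18 against 0.913 to 1.02 in the others.

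Ratios between chains within a liver cancel what scales all collagens of that liver together, so 7 ratios of FPKM were compared between groups by exact two-sided permutation tests over the 6 livers, with p-values adjusted over the 7. The Col4a1 to Col4a2 ratio was 1.44 ± 0.161 (SD, n = 3) in the GFP-labelled livers and 1.40 ± 0.065 in the Cre-labelled livers (exact permutation p = 0.8, adjusted p = 0.8). The Col3a1 to Col1a1 ratio was 1.75 ± 0.293 and 1.59 ± 0.169 (exact permutation p = 0.6, adjusted p = 0.7). Both pairs overlapped between groups. For the other 5 ratios the groups did not overlap, each with the smallest p that this design allows (exact permutation p = 0.1, adjusted p = 0.14), so none could pass 0.05. Col1a1 to Col4a1, a fibril chain over a basement membrane chain, was 0.742, 0.495 and 0.636 in the GFP-labelled livers and 1.14, 1.73 and 1.35 in the Cre-labelled livers. Col1a1 to Col1a2 was 1.00 ± 0.225 and 1.22 ± 0.070. The ratio of Col5a1 to Col5a2 was lower in the Cre-labelled livers, 2.23 ± 0.623 against 1.30 ± 0.149, as were those of Col6a1 to Col6a2, 1.74 ± 0.170 against 1.43 ± 0.102, and of Col5a2 to Col3a1, 0.0796 ± 0.0114 against 0.0633 ± 0.0062.

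**Figure D4:**
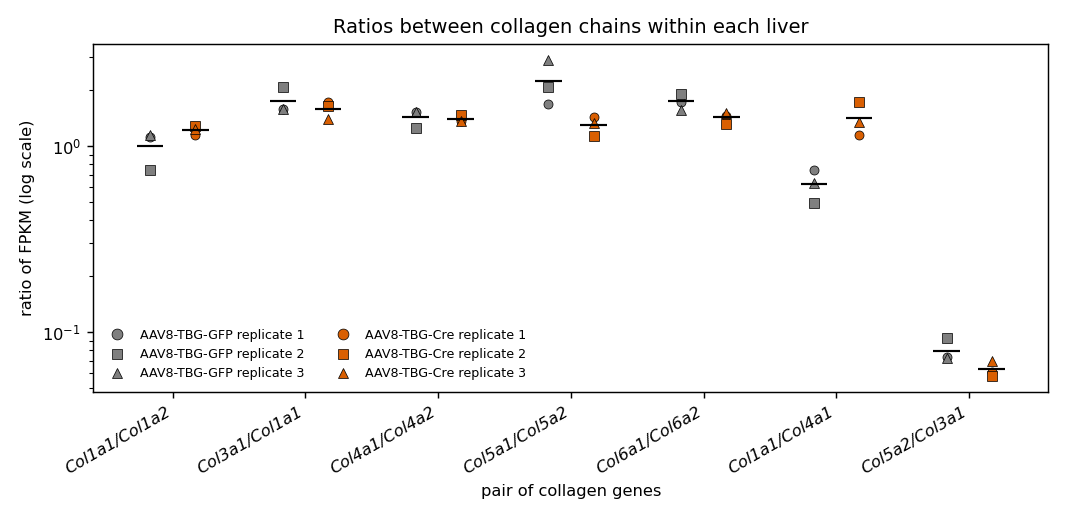
Ratio of the FPKM of 2 collagen genes within each liver (y axis, log scale) for 7 pairs (x axis), with bars at the group means. Col4a1/Col4a2 overlaps between groups at means of 1.44 and 1.40, and Col1a1/Col4a1 lies between 0.495 and 0.742 in GFP-labelled and between 1.14 and 1.73 in Cre-labelled livers.

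For 4 collagen genes 2 transcripts had enough expected counts (at least 50 per gene in every liver) to compare the share of the leading transcript. Col18a1 was read almost wholly from its transcript of 5642 bases, with a share of 99.7% ± 0.0756 (SD, n = 3) in the GFP-labelled livers and 99.5% ± 0.519 in the Cre-labelled livers, beside a transcript of 5058 bases. The shares were 91.9% ± 1.88 and 92.5% ± 2.41 for Col5a3 and 90.9% ± 3.95 and 91.2% ± 2.26 for Col6a3. Col13a1 varied most, at 76.1%, 52.2% and 70.9% in the GFP-labelled livers and 100%, 85.5% and 73.9% in the Cre-labelled livers. For none of the 4 did the difference pass the test (exact permutation p between 0.2 and 0.9, adjusted p of at least 0.8). Col4a5 had too few counts for this comparison. Its transcript of 6503 bases was assigned no fragment in any GFP-labelled liver and 37.6, 188 and 37.6 in the Cre-labelled livers, while its transcript of 6331 bases had 19, 20 and 16 against 63.4, 71.0 and 54.4. By these estimates both transcripts stood higher in the Cre-labelled livers. How the fragments divide between the transcripts rests on few counts and was not tested.

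Collagen chains need folding helpers in the endoplasmic reticulum, proteases that trim the propeptides, and lysyl oxidases that crosslink the fibrils, and 5 lists of such genes were read in the same fit. Of 23 genes for folding and modification, 21 were tested, 7 were higher and 2 lower at the study's threshold, against 12.0% and 8.41% of all genes tested, and the median log2 fold change was 0.25. Serpinh1, the collagen chaperone also called Hsp47, was read at 21.8, 14.2 and 10.3 CPM in the GFP-labelled livers and 26.9, 42.1 and 32.1 CPM in the Cre-labelled livers, a log2 fold change of 1.13 ± 0.28 (SE, n = 3 per group; adjusted p = 0.0854). Plod2, which hydroxylates lysines of the collagen ends, was read at 1.17, 0.765 and 0.733 CPM in the GFP-labelled livers and 1.62, 4.97 and 3.51 CPM in the Cre-labelled livers, a log2 fold change of 1.92 ± 0.45 (SE, n = 3 per group; adjusted p = 0.0789). In both genes the groups did not overlap. The other 5 that were higher were Crtap (0.78) and P3h1 (0.35) of the prolyl 3-hydroxylase complex, P3h2 (1.13), the chaperone Fkbp10 (1.13) and Creb3l1 (0.97), a transcription factor known for type I collagen. Plod1 (-0.34), another lysyl hydroxylase, and Mia2 (-0.45), which acts in export from the reticulum, were lower. P4hb, the subunit of prolyl 4-hydroxylase that is also protein disulfide isomerase, stood between 1005 and 1538 CPM and did not pass (-0.26 ± 0.19, adjusted p = 0.480).

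Of 13 genes for procollagen processing and crosslinking, 10 were tested, 4 were higher, against 12.0% of all genes, and 0 were lower, against 8.41%, with a median log2 fold change of 0.55. Lox, lysyl oxidase, with 1 GFP-labelled liver above the count filter, had the largest difference of the 5 lists, at 0.407, 0.255 and 0.628 CPM in the GFP-labelled livers and 1.91, 7.93 and 4.38 CPM in the Cre-labelled livers, a log2 fold change of 3.45 ± 0.60 (SE, n = 3 per group; adjusted p = 0.0509). The lowest Cre-labelled liver was well above the highest GFP-labelled one. Its relatives Loxl1 (1.73 ± 0.41) and Loxl2 (1.08 ± 0.26) and the N-propeptidase Adamts2 (1.04 ± 0.26) were higher as well, while the C-propeptidase Bmp1 was not (-0.22 ± 0.17).

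Of 10 collagen receptors and uptake genes, 7 were tested, 3 were higher and 0 lower (all genes, 12.0% and 8.41%), with a median of 0.26. Ddr1, a receptor tyrosine kinase that binds collagen, stood at 3.66, 2.19 and 2.25 CPM in the GFP-labelled livers and 13.0, 29.6 and 14.5 CPM in the Cre-labelled livers. It rose, with a log2 fold change of 2.81 ± 0.38 (SE, n = 3 per group; adjusted p = 0.0338), and its groups were far apart. Mrc2, which takes up collagen for breakdown, stood at 3.25, 2.65 and 2.46 CPM in the GFP-labelled livers and 6.78, 14.5 and 7.75 CPM in the Cre-labelled livers, a log2 fold change of 1.79 ± 0.32 (SE, n = 3 per group; adjusted p = 0.0520). Lair1 (1.00 ± 0.39), an inhibitory collagen receptor of immune cells, was higher with overlapping groups, and the integrin subunits Itga1 and Itgb1 passed neither threshold.

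Of 12 matrix proteins that bind collagen, 11 were tested, 7 were higher and 1 was lower, beside 12.0% and 8.41% of all genes, with a median of 0.80. Lum, Fmod and Bgn are leucine-rich proteoglycans. Their log2 fold changes were 1.74 ± 0.41, 2.15 ± 0.57 and 0.80 ± 0.32. Nid1 (0.95), Nid2 (1.01) and Hspg2 (0.49), which link the basement membrane, and Sparc (1.31), a collagen-binding matricellular protein, were higher, and Tnxb (-0.43) was lower. Dcn, a proteoglycan related to Bgn, was abundant and did not pass (0.38 ± 0.28).

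Of 10 collagen-degrading proteases and their inhibitors, 9 were tested, 5 were higher and 0 lower, where all genes gave 12.0% and 8.41%, with a median of 1.18. Mmp2, a gelatinase, was read at 5.69, 3.52 and 4.19 CPM in the GFP-labelled livers and 12.6, 34.5 and 14.9 CPM in the Cre-labelled livers, a log2 fold change of 2.21 ± 0.41 (SE, n = 3 per group; adjusted p = 0.0552). Timp1, an inhibitor of such proteases, was read at 0.915, 0.408 and 0.576 CPM in the GFP-labelled livers and 1.86, 4.07 and 2.65 CPM in the Cre-labelled livers, a log2 fold change of 2.17 ± 0.42 (SE, n = 3 per group; adjusted p = 0.0595). Both were above all GFP-labelled livers in every Cre-labelled liver. Mmp12 (2.05), Timp2 (1.14) and the protease Ctsk (1.35) were higher as well. The counts of the 5 lists are descriptions, and no list was tested. Without all GFP-labelled livers above the count filter, 1 tested gene for folding, 1 for processing and 3 proteases or inhibitors, Timp1 among them, still passed it. These depended on the Cre-labelled livers to be tested. Of the 26 genes of the 5 lists that were higher, 1, Ddr1, passed the adjusted threshold.

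**Figure D5:**
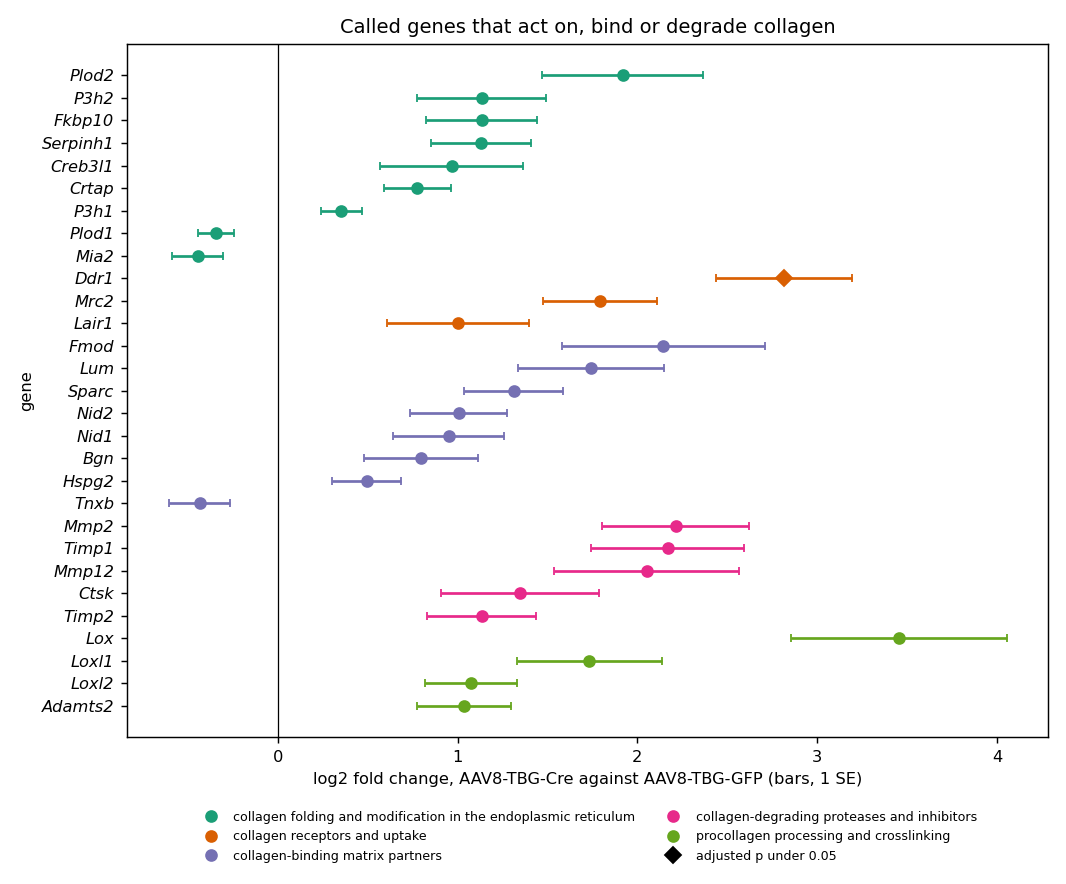
Log2 fold change (x axis, bars 1 SE, edgeR) of the 29 genes of 5 collagen-related lists that passed the study's threshold (y axis). Lox has the largest at 3.45, Ddr1 (diamond, 2.81) passed an adjusted p under 0.05, and Plod1, Mia2 and Tnxb lie below 0.

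A bulk liver library cannot tell apart more cells of a collagen-making type and more collagen RNA per cell. Marker genes of the cell types that liver can hold moved with the collagens in part. The portal fibroblast list summed to between 13.7 and 22.4 CPM in the GFP-labelled livers and between 53.3 and 134 CPM in the Cre-labelled livers, with 4 of the 6 markers tested higher, against 12.0% of all genes. Of that list Eln, elastin, rose (3.99, adjusted p = 0.0343, edgeR), from 3.71, 1.79 and 3.14 CPM to 24.1, 83.8 and 29.5 CPM. The cholangiocyte list summed to between 72.2 and 128 CPM and between 306 and 574 CPM, with 8 of the 8 tested higher, against 12.0% of all genes. Of these, 3 passed the count filter without all GFP-labelled livers, so they depended on the Cre-labelled livers to be tested. Among the 3, Cldn4 and Cftr passed it in no GFP-labelled liver. For stellate cells the sums overlapped (133 to 219 and 174 to 282 CPM). Of 12 stellate markers 4 were higher, Pdgfrb at 1.04 among them, 1 was lower, and the defining Lrat, Reln and Lhx2 passed neither threshold. The activated stellate cell list overlapped too, at 11.4 to 22.1 and 12.1 to 34.0 CPM. In that list Lox and Timp1 were higher, though neither was above the count filter in all GFP-labelled livers. Acta2 was not higher (-0.37, adjusted p = 0.748, edgeR), and Cthrc1 was at 0 in 3 livers. No marker of any list was at 0 in all 6 livers. The part of these cell types in the collagen differences was not tested.

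The sums for macrophages and Kupffer cells were 172 to 199 and 242 to 327 CPM (5 of 8 higher) and for mesothelial cells 1.22 to 3.66 and 3.39 to 9.57 CPM (2 of 4 higher). The 4 mesothelial markers each passed the count filter without all GFP-labelled livers. Endothelial markers summed to 185 to 310 and 191 to 232 CPM, with 0 of 10 higher and 1 lower at the study's threshold, against 12.0% and 8.41% of all genes. The log2 fold change was negative for all 10, with a median of -0.31. T and NK cells came to 1.36 to 2.14 and 1.91 to 5.05 CPM, B cells to 1.33 to 1.47 and 1.59 to 3.96 CPM and neutrophils to 6.51 to 7.14 and 6.57 to 8.97 CPM. Adipocyte markers were lower in sum, at 10.2 to 26.0 against 1.81 to 2.72 CPM. At an adjusted p under 0.05 in edgeR, 3 of 8 cholangiocyte, 1 of 8 macrophage and 1 of 3 neutrophil markers tested rose, besides Eln. Of 2 adipocyte markers tested 1 fell, and the other had a positive log2 fold change and was not called. Of the 3 neutrophil markers 2 were higher and 1 was lower at the study's threshold, and the sums overlapped. In the neutrophil and adipocyte lists 1 marker each passed the count filter without all GFP-labelled livers. Of all genes tested 0.484% rose and 0.447% fell. Hepatocyte markers made up between 83560 and 114836 CPM in every liver, with 2 of 8 higher and 1 lower. AAV8-TBG-Cre replicate 2 held the highest sum for portal fibroblasts, stellate cells, cholangiocytes, macrophages and mesothelial cells, as it did for the collagens.

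Without AAV8-TBG-Cre replicate 2, 13 of the 16 collagen genes were still higher at the study's threshold, against 8.19% of all genes tested in that fit. The exceptions were Col4a6, Col6a1 and Col16a1, and Col27a1 was still lower. Without AAV8-TBG-GFP replicate 3, 12 of the 16 were still higher, against 10.7% of all genes tested in that fit. There Col4a3 (unadjusted p = 0.0535, edgeR) and the same 3 genes were not called. Col4a3 was also not called without AAV8-TBG-GFP replicate 1 or without AAV8-TBG-Cre replicate 1, where its log2 fold change was 1.15, nor was Col6a1 without AAV8-TBG-GFP replicate 2. The fitted difference of Col4a6 ranged from 1.99 to 4.57 over these fits. In edgeR Col4a5 and Col27a1 no longer passed the adjusted threshold when any 1 of the livers other than AAV8-TBG-Cre replicate 1 was left out (adjusted p up to 0.152 and 0.164), and without AAV8-TBG-Cre replicate 1 Col4a5 and 7 further collagens rose and Col27a1 fell, in a fit that called 928 of all genes against 125 with all 6 livers. DESeq2, which called 1157 of all genes at the adjusted threshold, gave 14 collagens that rose, Col4a5 among them, and Col27a1 as the 1 that fell. In simulated counts 22% of the DESeq2 calls at that threshold were false, against 8.05% for edgeR. The names of the library columns have 3 digits for GFP-labelled livers 1 and 2 and Cre-labelled liver 1 and 4 digits for the others, and the labels do not say what the difference stands for. With the form of name as a covariate, Col4a6 (unadjusted p = 0.0536) and Col6a1 (0.0702, edgeR) were not called. Within a form the comparison rests on 1 Cre-labelled liver (3 digits) or 1 GFP-labelled liver (4 digits) and has no test. All 16 genes were higher within both, with log2 ratios of mean CPM between 0.14 and 3.07 among the 3-digit libraries and between 0.90 and 4.09 among the 4-digit ones. Col27a1 was lower within both, at -2.38 and -1.51.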

How the data were processed

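Total RNA of 6 livers was sequenced on the DNBseq platform. The authors deposited an expected count and FPKM per transcript, and FPKM per gene (a level corrected for transcript length and library size, rounded to 2 decimals). The submitters' processing notes name HISAT2, Bowtie2, RSEM and mm10 without versions, while STAR, HTSeq and DESeq2 stand in the paper's methods. A share between related transcripts is therefore an estimate.

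The expected counts of a gene's transcripts were added and rounded. The 44 collagen genes were all those found by their symbol, and the classes, gene lists and alternatives were chosen with earlier results of these data known. The test was edgeR 4.0.16 (R 4.3.3) with TMM, filterByExpr and the quasi-likelihood test of the vector over all 13431 genes tested, with Benjamini-Hochberg adjustment. CPM are after TMM, and SE is derived from the quasi-F statistic. A called gene had an unadjusted p under 0.05 with at least a 1.2-fold difference, and "rose" and "fell" are kept for an adjusted p under 0.05. The steps were tested on simulated counts, where 8.05% of the edgeR calls and 22% of the DESeq2 calls at an adjusted p under 0.05 were false. These counts were drawn once, with edgeR's own estimates of spread and few changed genes, so the shares need not hold for the livers. Libraries of 1 group always differed by more than sampling noise (chi-square per gene of at least 24.9). Depth per liver was 20356440 to 21010508 counts, which leaves genes near 1 CPM with about 20 counts and a large counting error. All collagens tested were named, with values in each liver for those called and for the 10 with the highest mean FPKM, and of the other lists the genes called.

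Alternatives were DESeq2 1.42.0, RLE scaling, no count filter, a block for the replicate number, a covariate for the number of digits in the library name, limma 3.58.1 on log2(FPKM + 1) and log2(FPKM + 0.1) for genes that reach an FPKM of 0.5 in 3 or more livers, limma without that filter, a fold of 1.5, and leaving out each liver. Promoter windows and gene positions are from RefSeq, GRCm38.p6, the assembly that mm10 represents, and all 44 collagens matched by gene ID.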

Additional observations from a re-analysis of the deposited data

How the results depend on the processing

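The 16 of 26 collagen genes that were higher numbered 18 of 39 with DESeq2 (9.61% of all genes tested there), 16 of 26 with RLE scaling, 19 of 39 without a count filter (10.6%), 14 of 26 with a covariate for the name form (10.6%), 12 of 18 in both limma fits on filtered FPKM (15.7% and 16.4%), where Col4a3, Col4a4, Col4a6 and Col8a1 were not tested, and 9 of 39 in the limma fit without a filter (10.7%), where 9 also passed a fold of 1.5. With RLE scaling 12.0% of all genes tested were higher. Leaving out 1 liver gave 12 to 16 collagen genes, in fits where 8.19% to 14.8% of all genes tested were higher. The genes that were lower numbered 2 without the count filter, with the name form and in leave-one-out fits (1 to 2), and Col5a3 was the gene added by the name form. By adjusted p the single collagen that rose became 14 with DESeq2 and 7 without the count filter, which called 1157 and 372 of all genes against 125, 0 in the 3 limma fits, which called 24, 21 and 9, and between 0 and 8 when 1 liver was left out (8 without AAV8-TBG-Cre replicate 1, with 928 of all genes called, 0 without any of the other 5), and the single one that fell was 0 in the 3 limma fits and 0 to 1 in the leave-one-out fits. With the replicate number as a block, 15 were higher (11.2% of all genes tested), 0 rose and Col27a1 fell, in a fit that called 7 of all genes by adjusted p. The labels do not say that the numbers pair the livers. Deviations of livers with the same number correlated at 0.070, -0.29 and 0.24, and those of livers with different numbers at -0.34 to 0.35. With 3 livers per group these values cannot decide whether livers were paired.

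The median over all collagens was 0.46 in the limma fit without a filter, that of fibrillar collagens 0.85 there, and that of basement membrane collagens 0.84, 1.13 and 0.46 in the limma fits with 1, 0.1 and no filter, each with 3 higher, and 1.11 to 1.72 in leave-one-out fits. The fibrillar genes that were lower were 2 with the name form and 1 to 2 in leave-one-out fits. Of the other collagens 1 was higher in the limma fit without a filter and 3 to 5 in leave-one-out fits, 1 was lower without the count filter and 0 to 1 in leave-one-out fits, and their median was 0.25 to 0.98 there. On FPKM, 84.1% of all called genes were higher, against 58.9% in edgeR, and the median of all genes lay at 0.11 with a pseudocount of 1 and 0.14 with 0.1. The cause of these differences was not tested.

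Signs turned only for genes that passed no threshold. Col18a1 was at 0.081 in the 3 limma fits. Col11a2 was at -0.14 with the name form and -0.10 to 0.52 in leave-one-out fits. Col12a1 was at -0.0025 with DESeq2, -0.0093 without the count filter, -0.32 with the name form and -0.27 to 0.52 in leave-one-out fits, and Col14a1 at -0.024 to 0.24 there. Under the alternatives the ratios and transcript shares moved by less than the spread between livers. This concerns the choice of method and not the differences between the groups, which are given above for each ratio. Of the 18 collagens not tested, 5 had no count and 13 had counts under the filter.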
